A study of Homo sapiens with 6 samples.

Results

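The keratin genes encode the proteins of the intermediate filaments of epithelial cells, and they were taken here as every row of the deposited count table that is marked protein coding and whose gene name is KRT followed by a number, with or without 1 letter. The rule found 55 keratin genes among the 58735 genes of the table. The RNA came from MCF10A, an established human breast epithelial line that is not malignant, 48 hours after transfection with a pool of siRNA against DAB2IP (siDAB2IP) or with a nontargeting control pool (siControl, labelled WT), with 3 libraries in each group. DAB2IP encodes a RasGAP, a protein that switches off Ras signaling. Both groups carried siRNA and were grown in DMEM/F12 with 5% horse serum, 10 ug/mL insulin, 20 ng/mL EGF, 100 ng/mL cholera toxin and 0.5 ug/mL hydrocortisone. The results therefore describe 1 cell line after a transient knockdown by pooled siRNA, and the labels do not state whether the libraries of a group came from separate cultures, so that p-values measure only the spread between these libraries.

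A keratin filament is built from pairs in which an acidic type I keratin joins a basic type II keratin, and the pairs differ between epithelia. KRT5 and KRT14, with KRT15, are the keratins of the basal layer of stratified epithelia and of basal mammary cells. KRT8 and KRT18, with KRT7, KRT19 and KRT20, are those of simple and glandular epithelia and, in the breast, of luminal cells. KRT6A, KRT6B, KRT6C, KRT16 and KRT17 are called stress keratins because wounded or hyperproliferative epidermis makes them, whereas the suprabasal keratins, such as KRT10, KRT4 and KRT13, mark cells that have left the basal layer. Hair, nail and root sheath keratins form the remaining large classes. The type I and type II genes each lie in a cluster, and in the GRCh38 coordinates of the table the 28 members on chromosome 17, all of type I, spanned 970 kb from 40654665 to 41624842, whereas the 27 members on chromosome 12, of which 26 were type II and the other was KRT18, spanned 784 kb from 52168996 to 52952901.

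Because keratin genes arose by duplication, a read can match more than 1 of them. The sequences below, on the minus strand of GRCh38 and read from the GENCODE release 29 transcripts, are coding bases 656 to 745 of KRT6A (chr12:52491532-52491621), KRT6B (chr12:52450416-52450505) and KRT6C (chr12:52472076-52472165), counted from 1 at the start codon, and they are shown because this 90-base window holds 10 of the 51 positions at which the coding sequences of the 3 genes are not all alike. Capitals mark those positions.
KRT6A: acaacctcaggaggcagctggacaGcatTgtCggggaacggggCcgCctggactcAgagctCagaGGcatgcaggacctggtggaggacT
KRT6B: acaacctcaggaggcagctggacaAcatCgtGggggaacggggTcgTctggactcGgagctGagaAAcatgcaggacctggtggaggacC
KRT6C: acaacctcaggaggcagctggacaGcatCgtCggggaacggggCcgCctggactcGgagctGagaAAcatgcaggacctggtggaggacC
Outside the capitals the 3 lines are identical. Over all 1692 coding bases, KRT6A was 97.5% identical to KRT6B and 97.9% identical to KRT6C, and KRT6B was 98.5% identical to KRT6C. Of all 150-base windows in the longest coding transcript, another gene's transcript held 9.25% for KRT6A, 12.8% for KRT6B, 16.5% for KRT6C, 25.6% for KRT81 and 22.1% for KRT86. A read from such a window can match more than 1 gene, and how the counting treated such reads was not tested. The share was 0.736% for KRT16 and 0.595% for KRT14, and it was 0% for each of the other 13 keratins tested.

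The libraries held between 16353783 and 21916062 counts, and a gene without a count in a library had at most 0.137 to 0.183 CPM (counts relative to the library total), a limit of 3 counts that covers counting error only. DAB2IP was at 103, 94.2 and 77.4 CPM in the siControl libraries and at 27.5, 25.6 and 22.4 CPM in the siDAB2IP libraries (log2 fold change −1.86, adjusted p = 9.71e-05). The epithelial markers CDH1, EPCAM, ITGA6 and ITGB4 were above 1 CPM in every library. Of 8 luminal markers 4 (GATA3, FOXA1, KRT8 and KRT18) were above 1 CPM, with a summed level of 303 to 318 CPM in siControl and 277 to 364 CPM in siDAB2IP. FOXA1 rose (adjusted p = 0.027). GATA3 was lower in siDAB2IP without overlap of the groups but was not called by edgeR (log2 fold change −0.45, adjusted p = 0.062). It fell under the replicate block, in which the replicate number was added to the edgeR fit (adjusted p = 0.028). ESR1, ELF5 and KRT19 were under 1 CPM, and PGR was at 0 in every library. Of the immune markers, CD3E was at 0 in every library, and PTPRC and CD68 were under 1 CPM. The summed level of the 6 fibroblast markers was 162 to 292 and 146 to 205 CPM. Of these, DCN and COL1A1 were above 1 CPM, whereas COL1A2, COL3A1, PDGFRA and LUM were near 0. COL1A1 rose (adjusted p = 0.013). DCN was not called by edgeR (log2 fold change −0.49, adjusted p = 0.15) but fell under the replicate block (adjusted p = 0.025). The summed level of the 4 myoepithelial markers was 7.85 to 9.94 and 9.93 to 11.5 CPM, and that of the 3 endothelial markers 11 to 16 and 7.42 to 11.2 CPM. Of 10 cell cycle genes 6 fell, beside 7.65% of all genes tested. Under the replicate block 9 fell, beside 11.4% of all genes tested. Under DESeq2 the count was 2, for which no share of all genes is given. Their summed level was 702 to 988 CPM in the siControl libraries and 151 to 551 CPM in the siDAB2IP libraries, with the lowest value in siDAB2IP replicate 3. Their part in the keratin results was not tested, and in bulk RNA fewer cells of a type and less RNA per cell cannot be told apart.

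Of the 55 keratin genes, 41 had at least 1 count in some library and 14 had none. The 20 that passed the filter on low counts were tested with the quasi-likelihood test of edgeR, with adjustment over all 15430 genes tested, and a gene is said to rise or fall where its adjusted p was under 0.05. Levels are given as CPM scaled by TMM factors, and fold changes are siDAB2IP over siControl. With knockdown, 4 of the 20 rose (KRT13, KRT4, KRT80 and KRT81) and 7 fell (KRT5, KRT14, KRT6A, KRT16, KRT17, KRT10 and KRT12). Thus 20% of the tested members rose, beside 6.55% of all genes tested, and 35% fell, beside 7.65% of all genes tested. Each count of falls in this paragraph includes KRT12, which passed the filter through the siControl libraries only, so its fall is not independent of the filter. Where at least 10 counts were required in every library, 18 keratins were tested. The same 4 rose, and those that fell were the genes above without KRT12. The share of all genes under that filter is not given. In 5 of the 20 every siDAB2IP library lay above every siControl library, and in 7 it lay below, beside 17.6% and 18.3% of all genes tested. Where the log2 fold change also had to be 1 or more in size, 3 keratins rose (KRT13, KRT4 and KRT80), beside 1.53% of all genes, and 3 fell (KRT14, KRT10 and KRT12), beside 2.42%. The median log2 fold change of the 20 was −0.01, and that of all genes tested was 0.01. Of the 9 type I genes tested 1 rose and 5 fell, and of the 11 type II genes 3 rose and 2 fell.

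**Figure D1:**
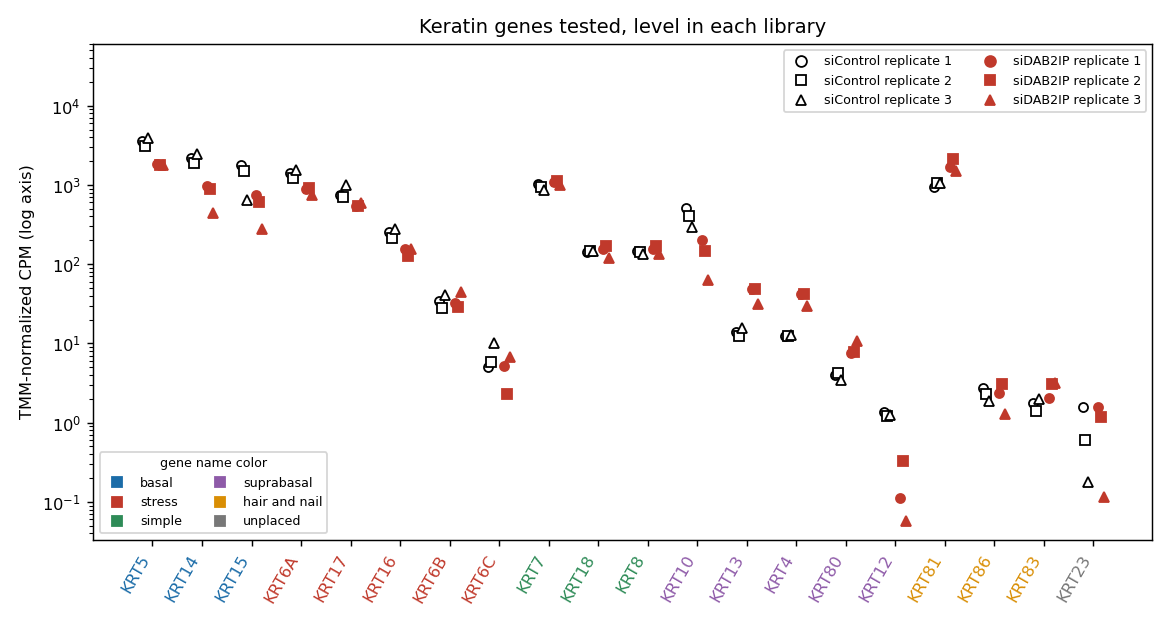
Level of each of the 20 keratin genes tested, in TMM-normalized CPM on a log axis, with 1 point per library: open black symbols for siControl, filled red symbols for siDAB2IP, and the symbol shape for the replicate number. Gene names are colored by class. KRT5, KRT14, KRT10 and KRT12 are lower and KRT13, KRT4, KRT80 and KRT81 higher in every siDAB2IP library, whereas KRT7, KRT8 and KRT18 overlap.

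The basal pair KRT5 and KRT14 had the highest keratin levels per length in the control cells, and both genes fell. KRT5, the type II partner (ENSG00000186081, chr12:52514575-52520687, minus strand), was at 3588, 3129 and 3879 CPM in siControl and at 1844, 1763 and 1793 CPM in siDAB2IP. It fell 1.96-fold (log2 fold change −0.97, SE 0.13, adjusted p = 0.0022), with siDAB2IP libraries that lay close together. KRT14, its type I partner (ENSG00000186847, chr17:41582279-41586921, minus strand), was at 2216, 1864 and 2479 CPM in siControl and at 969, 885 and 439.6 CPM in siDAB2IP. It fell 2.86-fold (log2 fold change −1.52, SE 0.26, adjusted p = 0.0058), and siDAB2IP replicate 3 held less of it than the other siDAB2IP libraries. Without that library the log2 fold change was −1.24 and KRT14 still passed the threshold (adjusted p = 1.4e-04).

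KRT15, a type I keratin of basal and stem-like cells of stratified epithelia (ENSG00000171346, chr17:41513743-41522529, minus strand), was at 1768, 1514 and 642 CPM in siControl and at 749, 607 and 281 CPM in siDAB2IP. The groups overlapped because siControl replicate 3 lay below siDAB2IP replicate 1, and KRT15 was not called (log2 fold change −1.26, SE 0.39, 95% interval −2.13 to −0.39, adjusted p = 0.058). Replicate 3 was the lowest library in both groups. Within each replicate number the log2 ratio was −1.24, −1.32 and −1.19, and with the replicate number as a block KRT15 fell (log2 fold change −1.25, adjusted p = 2.0e-04), which made 3 of 3 basal keratins. Under that fit 8 keratins fell, beside 11.4% of all genes, and 4 rose, beside 9.59%. It also passed when siControl replicate 3 was left out (adjusted p = 0.023), when siDAB2IP replicate 1 was left out (adjusted p = 0.048) and without replicate 3 of both groups (adjusted p = 1.5e-05). The basal mammary markers checked that are no keratins were TP63, which encodes a transcription factor of basal cells, and EGFR, the receptor of EGF. TP63 was at 66.9, 60.5 and 50.1 CPM in siControl and at 49.4, 41.0 and 29.4 CPM in siDAB2IP, and it was not called without the block (log2 fold change −0.57, adjusted p = 0.061) but fell with it (−0.59, adjusted p = 0.0046) and with DESeq2 (adjusted p = 0.020). EGFR was at 712, 741 and 893 CPM in siControl and at 789.9, 842 and 766 CPM in siDAB2IP, with overlap of the groups (log2 fold change 0.03, 95% interval −0.24 to 0.30, adjusted p = 0.90).

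Of the 5 stress keratins 3 fell, beside 7.65% of all genes tested, with log2 fold changes between −0.77 and −0.54. None rose by edgeR (0 at an unadjusted p under 0.05 and 0 by DESeq2). KRT6A (ENSG00000205420, chr12:52487174-52493257, minus strand), the most abundant of them, was at 1425, 1235 and 1526 CPM in siControl and at 891, 909 and 746 CPM in siDAB2IP (log2 fold change −0.72, SE 0.13, adjusted p = 0.0081). KRT16, a type I partner of KRT6 proteins (ENSG00000186832, chr17:41609778-41615899, minus strand), was at 252, 215 and 279 CPM in siControl and at 157, 127 and 153 CPM in siDAB2IP (log2 fold change −0.77, SE 0.13, adjusted p = 0.0052). Neither gene's groups overlapped. KRT17 (ENSG00000128422, chr17:41619441-41624842, minus strand), a type I keratin of skin appendages and of basal mammary cells that also pairs with KRT6 proteins, was at 745, 697 and 998 CPM in siControl and at 543, 539.7 and 598 CPM in siDAB2IP (log2 fold change −0.54, SE 0.15, adjusted p = 0.037). Its call was lost in 8 of 18 alternatives, the most among the 11 called keratins. Leaving out any of these libraries ended it: siControl replicate 1 (adjusted p = 0.059), siControl replicate 2 (0.055), siControl replicate 3 (0.10), siDAB2IP replicate 1 (0.098) and siDAB2IP replicate 2 (0.093), and the log2 fold change over these fits lay between −0.65 and −0.38.

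KRT6B and KRT6C were far less abundant than KRT6A and were not called. KRT6B was at 34.5, 28.2 and 40.4 CPM in siControl and at 32.3, 29.2 and 44.5 CPM in siDAB2IP (log2 fold change 0.04, 95% interval −0.36 to 0.44). KRT6C was at 5.11, 5.76 and 10.0 CPM in siControl and at 5.13, 2.27 and 6.73 CPM in siDAB2IP (log2 fold change −0.57, 95% interval −1.40 to 0.27). In both genes the groups overlapped. With the counts of the 3 KRT6 genes summed, the log2 fold change was −0.69 (adjusted p = 0.0087), and how reads were shared among the copies was not tested.

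None of the 3 simple keratins tested was called by edgeR (0 at an unadjusted p under 0.05 and 0 by DESeq2), and their log2 fold changes lay between 0.02 and 0.17. KRT7 (chr12:52232520-52252186, plus strand), a type II keratin of glandular ducts, was at 1027, 944 and 874 CPM in siControl and at 1081, 1113 and 997 CPM in siDAB2IP (log2 fold change 0.17, 95% interval −0.09 to 0.42, adjusted p = 0.38). KRT8 was at 148, 144 and 134 CPM in siControl and at 154, 167 and 133 CPM in siDAB2IP (log2 fold change 0.09, 95% interval −0.15 to 0.33). Its partner KRT18 was at 143, 146 and 148 CPM in siControl and at 154, 169 and 121 CPM in siDAB2IP (log2 fold change 0.02, 95% interval −0.26 to 0.30). The groups overlapped for all 3 genes, and the intervals exclude a change as large as the fitted fall of KRT5. KRT19, a widely used luminal keratin, was barely detected, with 1, 6 and 1 counts in the siControl libraries and 2, 5 and 2 counts in the siDAB2IP libraries, and KRT20, a keratin of intestinal epithelium, had 9, 7 and 3 counts and 0, 1 and 2 counts.

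The suprabasal class was divided. Of its 14 members 5 were tested, of which 3 rose and 2 fell, beside 6.55% and 7.65% of all genes tested. The groups of all 5 did not overlap, beside 17.6% of all genes tested that were higher and 18.3% that were lower without overlap. The 2 that fell include KRT12, which passed the filter through the siControl libraries only. KRT13 and KRT4, the type I and type II partners of the suprabasal layers of mucosal epithelia, rose by like amounts from low levels. KRT13 (ENSG00000171401, chr17:41500981-41505705, minus strand) was at 14, 12.3 and 15.7 CPM in siControl and at 49.0, 49.2 and 31.2 CPM in siDAB2IP, a 3.09-fold rise (log2 fold change 1.63, SE 0.19, adjusted p = 0.0011). KRT4 (ENSG00000170477, chr12:52806549-52814551, minus strand) was at 12.3, 12.5 and 12.9 CPM in siControl and at 41.8, 41.9 and 29.3 CPM in siDAB2IP, a 3.0-fold rise (log2 fold change 1.59, SE 0.16, adjusted p = 4.8e-04). In both genes siDAB2IP replicate 3 was the lowest of its group and still above every siControl library. KRT80, a type II keratin of differentiating epithelia (ENSG00000167767, chr12:52168996-52192000, minus strand), was at 3.99, 4.27 and 3.41 CPM in siControl and at 7.56, 7.86 and 10.8 CPM in siDAB2IP (log2 fold change 1.16, SE 0.21, adjusted p = 0.0066).

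KRT10 and KRT12, the type I members of this class that fell, are the keratins of the suprabasal epidermis and of the corneal epithelium. KRT10 (ENSG00000186395, chr17:40818117-40822595, minus strand) was at 514, 406 and 290.1 CPM in siControl and at 202, 148 and 63.4 CPM in siDAB2IP, a 2.93-fold fall (log2 fold change −1.55, SE 0.35, adjusted p = 0.018). Replicate 3 was again the lowest library in both groups, and the adjusted p with the replicate block was 4.3e-04. The call was lost without siControl replicate 1 (log2 fold change −1.36, adjusted p = 0.066) and without siControl replicate 2 (−1.56, adjusted p = 0.055). KRT12 (ENSG00000187242, chr17:40860943-40867224, minus strand) had few counts, with 22, 26 and 21 counts in the siControl libraries and 2, 6 and 1 counts in the siDAB2IP libraries. It passed the filter on low counts through the siControl libraries only. Where at least 10 counts were required in every library, KRT12 was not tested. The 9 counts against 69 correspond to a ratio of 0.138 per total count (exact 95% interval 0.0605 to 0.277, counting error only), and the adjusted p was 0.0076. KRT1 and KRT2, which pair with KRT10 in epidermis, did not pass the filter.

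Of these 20 genes, 5 had an entry among the RefSeq promoters of GRCh38.p14, and the windows of KRT10 and KRT12 lay upstream of the start that the table gives. The 250 bases before the RefSeq start of both genes, on the minus strand at chr17:40822615-40822864 for KRT10 and chr17:40867224-40867473 for KRT12, are shown because these type I genes are neighbors in the cluster on chromosome 17 and both fell. Capitals mark TATAA, the core of the TATA box, read on either strand.
KRT10: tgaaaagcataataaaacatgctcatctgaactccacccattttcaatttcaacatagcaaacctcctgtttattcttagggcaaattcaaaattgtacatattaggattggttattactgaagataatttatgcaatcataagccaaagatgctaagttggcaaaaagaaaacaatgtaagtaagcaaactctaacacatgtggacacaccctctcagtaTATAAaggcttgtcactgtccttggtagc
KRT12: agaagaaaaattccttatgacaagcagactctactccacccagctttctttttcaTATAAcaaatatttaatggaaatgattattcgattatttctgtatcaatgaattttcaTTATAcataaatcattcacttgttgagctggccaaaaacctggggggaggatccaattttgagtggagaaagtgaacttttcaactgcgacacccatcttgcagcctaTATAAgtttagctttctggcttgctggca
KRT10 held 1 match and KRT12 held 3, and 19% of the 34943 promoter windows of this length held at least 1. The letters TGANTCA (AP-1) and GCCNNNGGC (AP-2), searched on both strands, were in neither window, and they were in 6.59% and 19.7% of all windows. The windows of KRT5, KRT4 and KRT8 lay inside the gene span and are not shown. That of KRT4, which rose, held 1 TATAA match and 1 AP-2 match. Those of KRT5, which fell, and KRT8, which was not called, held no match to any of these letters. A match is a description of these letters only, and nothing about binding was measured.

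KRT81, a type II keratin of the hair cortex that is also made by some breast epithelial cells (ENSG00000205426, chr12:52285913-52291534, minus strand), was abundant in the control cells and rose. It was at 936, 1051 and 1063 CPM in siControl and at 1701, 2121 and 1478 CPM in siDAB2IP, a 1.74-fold rise without overlap of the groups (log2 fold change 0.80, SE 0.15, adjusted p = 0.0088). The other hair keratins tested were near 2 CPM. KRT83 was at 1.74, 1.39 and 2.0 CPM in siControl and at 2.03, 3.10 and 3.19 CPM in siDAB2IP, higher without overlap but not called (log2 fold change 0.70, adjusted p = 0.13). KRT86 was at 2.74, 2.32 and 1.88 CPM in siControl and at 2.37, 3.05 and 1.28 CPM in siDAB2IP (log2 fold change −0.05, 95% interval −0.79 to 0.70). KRT86 lies on the opposite strand over the whole of KRT81, and the strand setting of the counting is not given in the sources used here, so reads of the pair cannot be told apart by strand. With KRT81, KRT83, KRT86 and the pseudogene KRT87P summed, the log2 fold change was 0.79 (adjusted p = 0.0090). No type I hair keratin passed the filter. KRT23, a type I keratin placed in no class here, was at 1.56, 0.604 and 0.176 CPM in siControl and at 1.58, 1.16 and 0.116 CPM in siDAB2IP (adjusted p = 0.83).

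**Figure D2:**
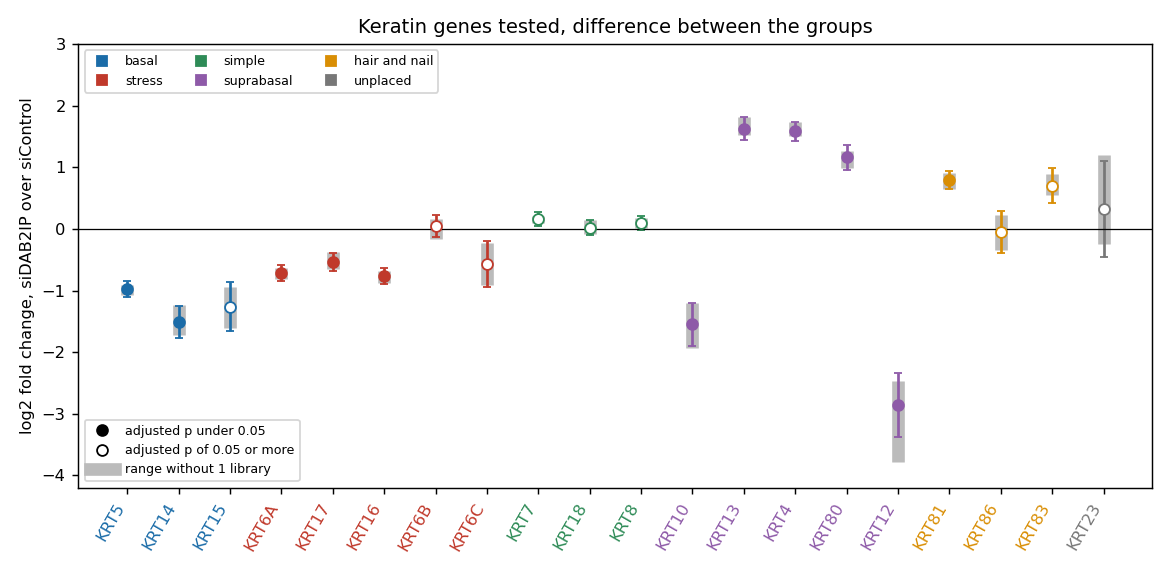
Log2 fold change, siDAB2IP over siControl, of the 20 keratin genes tested, colored by class. Points are the edgeR estimates, filled where the adjusted p was under 0.05, bars are 1 standard error, and gray bands span the fits that left out 1 library. The basal and stress genes called lie below 0, the simple keratins lie near 0, and the suprabasal genes lie on both sides, from −2.85 for KRT12 to 1.63 for KRT13.

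Of the 35 keratins that did not pass the filter, 21 had at least 1 count, and none had more than 58 counts over the 6 libraries. The highest 5 were KRT40, KRT9, KRT78, KRT20 and KRT24. KRT40, a hair keratin, had 13, 24 and 8 counts in siControl and 4, 5 and 4 counts in siDAB2IP, and KRT9, a keratin of palm and sole epidermis, had 3, 6 and 0 counts in siControl and 7, 12 and 8 counts in siDAB2IP. KRT78 had 2, 3 and 5 counts in siControl and 6, 6 and 6 counts in siDAB2IP. KRT24 had 0, 3 and 3 counts in siControl and 6, 7 and 0 counts in siDAB2IP. None of the 9 inner root sheath keratins was tested, and 5 of them had no count at all.

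Together the keratins accounted for 1.12% to 1.26% of all counts in the siControl libraries and for 0.717% to 0.868% in the siDAB2IP libraries. Their summed level was 12842, 11417 and 12401 CPM in siControl and 8589, 8690 and 6932 CPM in siDAB2IP, so the groups did not overlap. To compare genes of unequal length, the deposited FPKM values were used, which are counts divided by gene length and a library total. On that scale KRT14 was the highest and KRT5 the next among the keratins in every siControl library, at 961, 812 and 1076 FPKM and at 827, 725 and 895 FPKM. The order of KRT14 and KRT5 rests on the gene lengths used, which were 2281 bases and 4292 bases. Their longest coding transcripts have 1662 and 2531 bases, and the ranking was not repeated with transcript lengths. KRT81 was the highest in every siDAB2IP library, at 874, 1087 and 757 FPKM, and KRT5 was the next, at 426, 406 and 413 FPKM. KRT14 was next in siDAB2IP replicates 1 and 2, at 421 and 384 FPKM, and below KRT6A and KRT7 in siDAB2IP replicate 3, at 190.4 FPKM. In siControl replicate 1, KRT6A and KRT81 were next to each other at 481 and 480.2 FPKM, and their order there was within the spread of either gene.

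By class, the basal keratins held 51.1 ± 1.29% (SD, n = 3) of the summed keratin FPKM in siControl and 30.5 ± 2.75% in siDAB2IP. The hair and nail class, nearly all of it KRT81, went from 13.8 ± 1.55% to 33.7 ± 3.04%, and the simple keratins from 7.77 ± 0.757% to 12.1 ± 0.796%, although the summed simple keratin level moved only from 295 ± 18.7 to 324 ± 24.7 FPKM. The stress keratins held 22.2 ± 1.73% in siControl and 20.3 ± 2.44% in siDAB2IP, a difference within the spread of the libraries, while the stress sum was 847 ± 112 FPKM in siControl and 539 ± 14.7 FPKM in siDAB2IP. In shares of counts the stress class differed by −0.49 percentage points, and the sign of this difference changed without siControl replicate 3 (0.80) and without siDAB2IP replicate 2 (0.23), whereas in shares of FPKM the difference of −1.88 lay between −3.25 and −0.88 without 1 library. Shares of FPKM rest on the gene lengths of the table and were not repeated with transcript lengths. In shares of counts the basal class went from 57.5 ± 1.32% in siControl to 38.4 ± 2.73% in siDAB2IP. The hair and nail class went from 8.40 ± 0.976% to 21.9 ± 2.36% of counts. Both classes thus moved in the same direction on either scale. In the siDAB2IP mean, hair and nail lay above basal in FPKM but below it in counts, so their order depends on the scale. Shares of one total are not independent of each other.

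The balance between the partner types also differed. Summed type I FPKM was 1833, 1572 and 1778 in siControl and 919.5, 828 and 557 in siDAB2IP, whereas summed type II FPKM was 2082, 1957 and 2214 in siControl and 1917, 2123 and 1716 in siDAB2IP. The ratio of type II to type I was 1.14, 1.24 and 1.25 in siControl and 2.09, 2.57 and 3.08 in siDAB2IP, and the groups did not overlap. With the length of the longest coding transcript in place of the gene length of the table, the ratio went from 1.27 ± 0.0415 to 2.36 ± 0.385 (SD, n = 3). Within partner pairs, KRT8 over KRT18 was 0.456 ± 0.0312 and 0.482 ± 0.0293, KRT4 over KRT13 was 0.796 ± 0.0846 and 0.776 ± 0.0444, and KRT6A over KRT16 was 4.76 ± 0.120 and 4.99 ± 0.987. KRT5 over KRT14 was 0.861, 0.892 and 0.832 in siControl and 1.01, 1.06 and 2.17 in siDAB2IP, and the largest ratio was that of siDAB2IP replicate 3. The pair ratios used only the gene length of the table. Another length would scale such a ratio alike in every library, so its level depends on the length used.

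**Figure D3:**
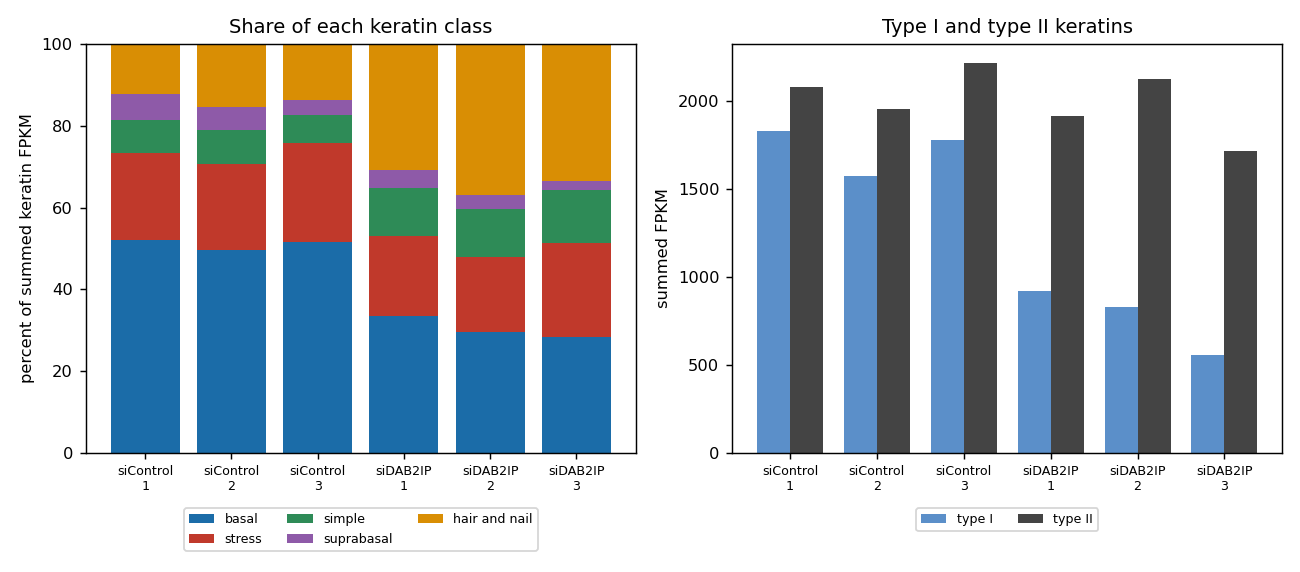
Left, percent of the summed keratin FPKM held by each class in each of the 6 libraries, stacked to 100. Right, summed FPKM of the type I and type II keratins in each library, with axes that start at 0. The basal share is 51.1% in the siControl mean and 30.5% in the siDAB2IP mean, and the type I sum is lower in each siDAB2IP library while the type II sums overlap.

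Libraries of the same replicate number deviated together, and most keratins kept their direction within each number. All 11 called genes had the same sign in the 3 pairs, as did KRT15, KRT7 and KRT83 among those not called. In replicate 3 the rises of KRT13, KRT4 and KRT81 were the smallest of the 3 pairs, with log2 ratios of 0.99, 1.18 and 0.48, whereas that of KRT80 was the largest, at 1.63 beside 0.91 and 0.87. The falls of all 7 keratins that fell were the largest in replicate 3, with −2.50 for KRT14 and −2.19 for KRT10. The same library, siDAB2IP replicate 3, was the lowest in the cell cycle genes. Without it the same 4 keratins rose and the same 7 fell.

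**Figure D4:**
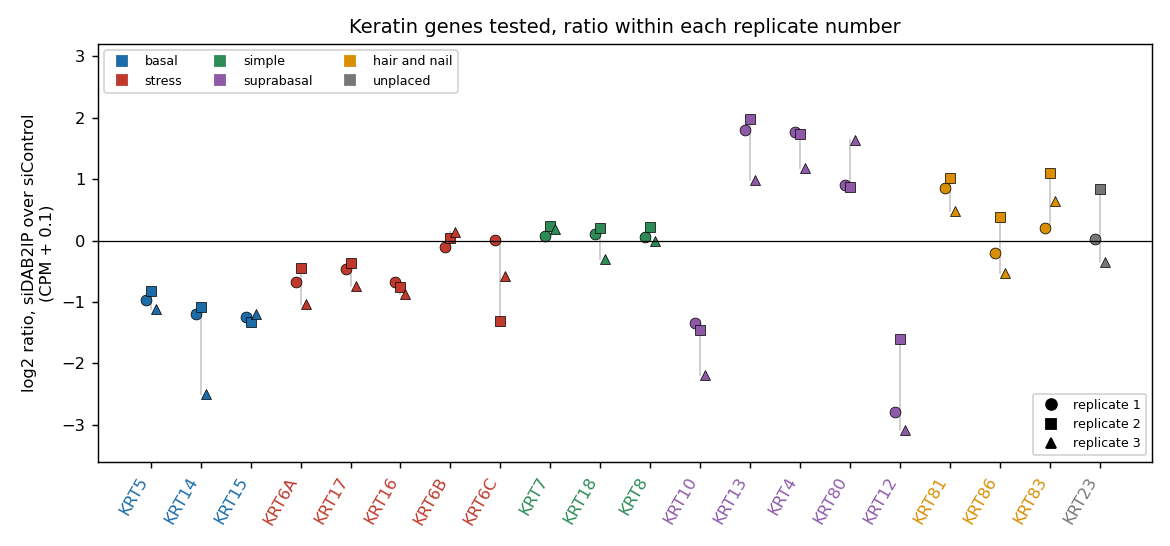
Log2 ratio of siDAB2IP over siControl within each replicate number for the 20 keratin genes tested, from CPM with 0.1 added, with 1 symbol shape per replicate number and color by class. The 3 ratios of KRT15 lie close together, from −1.32 to −1.19, whereas those of KRT14 run from −2.50 to −1.07.

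Several keratin genes share their position with other genes. KRT8 and KRT18 overlap by 1084 bases on opposite strands, KRT10 overlaps TMEM99 on the opposite strand by 3490 bases, and KRT7 overlaps KRT7-AS by 2401 bases. TMEM99 was at 13 CPM and KRT7-AS at 48.8 CPM in the mean of all libraries, both well below the keratin they overlap. Of the 136 keratin pseudogenes, those named for a parent keratin with the highest mean levels were KRT8P12 (7.50 CPM), KRT16P6 (1.91 CPM), KRT8P33 (0.862 CPM), KRT8P46 (0.652 CPM) and KRT8P39 (0.384 CPM), and none of them that was tested was called. KRT87P, named after its values were seen, was at 11.4 CPM (log2 fold change 0.34, adjusted p = 0.24). Summing each parent with its pseudogenes changed no keratin call.

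Keratin filaments are anchored at desmosomes, which join neighboring cells, and at hemidesmosomes, which hold the cell to the basement membrane. The 38 filament partner genes encode desmosome, hemidesmosome and keratin-binding proteins and other intermediate filament proteins. The last group includes the lamins, which lie in the nucleus and not beside keratin filaments. Of the 38 genes, 30 were tested, of which 7 fell and none rose by edgeR. At an unadjusted p under 0.05, 2 were higher, and DESeq2 called 1, MACF1, which encodes a linker between microtubules and actin. The 7, which include the lamin genes LMNA and LMNB1, are 23.3% of those tested, beside 7.65% of all genes. Of 9 desmosome genes 4 fell. DSP, which encodes desmoplakin, the protein that ties keratins to the desmosome, was at 1583, 1419 and 1925 CPM in siControl and at 954, 909 and 798 CPM in siDAB2IP (log2 fold change −0.89, SE 0.14, adjusted p = 0.0048). PERP, a tetraspan protein of desmosomes and a known p53 target, was at 1258, 1370.2 and 1301 CPM in siControl and at 667, 617 and 423 CPM in siDAB2IP (log2 fold change −1.20, SE 0.17, adjusted p = 0.0025). The plakophilin genes PKP1 (2.37 ± 0.722 to 0.830 ± 0.121 CPM, adjusted p = 0.017) and PKP2 (106 ± 6.99 to 72 ± 18 CPM, adjusted p = 0.048) fell as well. In DSP and PERP each siDAB2IP library lay below each siControl library.

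None of the 5 hemidesmosome genes was called at the adjusted threshold, and 1 was lower at an unadjusted p under 0.05 (DESeq2 called 0). Of the 7 other intermediate filament genes tested 3 fell, beside 7.65% of all genes tested. VIM, which encodes vimentin, the intermediate filament of mesenchymal cells that cultured epithelial lines often make too, was at 132, 133 and 136 CPM in siControl and at 71.2, 69.1 and 63.1 CPM in siDAB2IP (log2 fold change −0.98, SE 0.09, adjusted p = 3.6e-04). LMNA, which encodes lamins A and C of the nuclear envelope, was at 437 ± 18.5 and 303 ± 27.8 CPM (SD, n = 3; log2 fold change −0.53, adjusted p = 0.013). LMNB1, which encodes lamin B1, was at 48.3, 59.0 and 66.5 CPM in siControl and at 25.9, 42.5 and 12.9 CPM in siDAB2IP (log2 fold change −1.10, adjusted p = 0.049). The calls of PKP2 and LMNB1 were each lost in 4 of the 6 fits without 1 library, with an adjusted p of 0.075 and 0.079 without siControl replicate 1, 0.14 and 0.12 without siControl replicate 2, 0.11 and 0.13 without siControl replicate 3, 0.055 for PKP2 without siDAB2IP replicate 2 and 0.11 for LMNB1 without siDAB2IP replicate 1. PKP1 was lost without siControl replicate 3 (adjusted p = 0.073), and only 4 of the list fell in that fit. With the replicate block, PPL (adjusted p = 0.020) and YWHAZ (adjusted p = 0.035), both named after their values were seen, fell too. None of the 9 genes for keratin-binding proteins and filament regulators was called without the block, with 2 higher and 1 lower at an unadjusted p under 0.05.

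**Figure D5:**
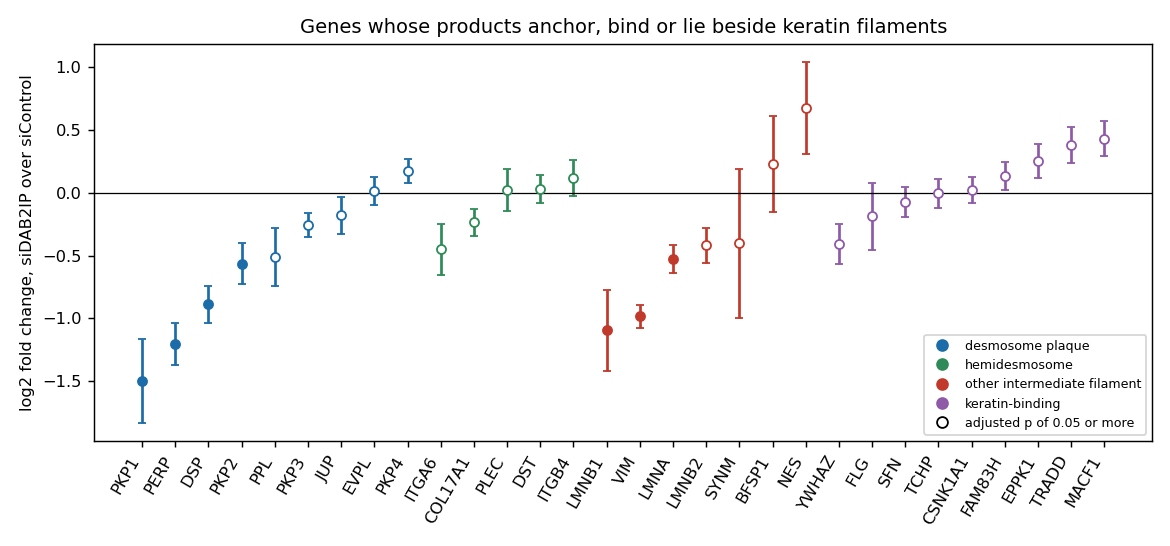
Log2 fold change, siDAB2IP over siControl, of the 30 filament partner genes tested, colored by group and ordered by value within it. The other intermediate filament genes include those of the nuclear lamins, which do not lie beside keratin filaments. Points are edgeR estimates, filled where the adjusted p was under 0.05, and bars are 1 standard error. The filled points are 4 desmosome genes and 3 other intermediate filament genes, all below 0.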

How the data were processed

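RNA-Seq libraries of MCF10A cells, 3 siControl and 3 siDAB2IP, were made at Novogene. The submitters' processing notes list STAR 2.6.1d, featureCounts 1.5.0-p3, DESeq2 1.20.0 and edgeR 3.24.3. The authors deposited raw read counts per gene, which are whole numbers without normalization, and FPKM values, in which the authors divided the counts by gene length and library total. Gene models matched GENCODE release 29 on GRCh38. The strand setting is not given in the sources used here.

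The counts were fitted with edgeR 4.0.16 under R 4.3.3 (low genes removed by filterByExpr, TMM scaling, glmQLFit and glmQLFTest, group as the only term), and p-values were adjusted by Benjamini-Hochberg over 15430 genes. Standard errors came from the quasi-likelihood F statistic. FPKM values served to compare genes of unequal length and, with limma 3.58.1, as an alternative. The scripts were tested on simulated data. Libraries with the same replicate number had positively correlated deviations from their group means (0.26, 0.15 and 0.25), which was read as a pairing, although the labels do not say what they mark. Those with different numbers had correlations of −0.28 to 0.02. Deviations from a group mean cancel out within the group, so these lower values partly follow from the positive ones and are no separate support.

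The members, classes and gene lists were chosen with earlier results of these data known. The genes named were DAB2IP, each keratin tested, the 5 highest keratins not tested, the filament partner genes called, the 5 highest keratin pseudogenes of the form KRT, number, P, number, and the cell type markers, some of which are not reported here. Alternatives were DESeq2 1.42.0, other scalings and filters, stricter thresholds, the replicate block, limma on log2(FPKM + 1) or log2(FPKM + 0.1), near-identical copies summed, protein-coding genes only, and each library left out. The sum of KRT81, KRT83, KRT86 and KRT87P, the other length for the type ratio, and leaving out each library for that ratio and for the stress share of FPKM were added after seeing the data. With 3 libraries against 3, an exact permutation test of a single value cannot go below 0.1, so none is given.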

Additional observations from a re-analysis of the deposited data

How the results depend on the processing

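No keratin called changed direction under any alternative. The number of keratins that rose stayed at 4, except for 2 with limma on all genes that had a count, using log2(FPKM + 1), and 3 where the absolute log2 fold change also had to reach 1. The 7 that fell became 1 in that limma fit and 3 where the fold change had to reach 1, lay between 5 and 7 without 1 library, and were 8 with the replicate block, 9 without replicate 3 of both groups (which added KRT15 and KRT40) and 5 with limma on log2(FPKM + 1) or log2(FPKM + 0.1) at a mean of at least 1 FPKM. With no filter except at least 1 count, KRT15 was added to those that fell. Requiring at least 10 counts in every library left out KRT12, and an adjusted p under 0.01 left out KRT10 and KRT17. The limma fit on all genes that had a count lost KRT5, KRT14, KRT81, KRT6A, KRT17, KRT10, KRT16 and KRT80, and the cause of this loss was not tested.

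The filament partner genes that rose, 0 by edgeR, were 1 with library size only, with DESeq2, with no filter except at least 1 count, without replicate 3 of both groups and without siDAB2IP replicate 3 (0 to 1 without 1 library), in each case MACF1. Those that fell, 7, became 11 with no filter, 4 with limma on log2(FPKM + 1) and log2(FPKM + 0.1) at a mean of at least 1 FPKM, 2 with limma on all genes that had a count, 3 at an adjusted p under 0.01 and 3 where the absolute log2 fold change had to reach 1, and were 4 to 7 without 1 library. With DESeq2 they were 7, with LMNB2 in place of LMNB1, and with the replicate block 9. Beside KRT15, PPL and YWHAZ, the pairing by replicate changed no other call among keratins and partner genes.

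The summed keratin CPM differed by −4150 (−4551 to −3581 without 1 library, −3902 with library size only), and the type II over type I ratio by 1.37 (1.12 to 1.62 without 1 library, 1.09 with the other length). The stress share differed by −0.49 percentage points in counts (−1.70 to 0.80 without 1 library) and by −1.88 in FPKM (−3.25 to −0.88 without 1 library). Depth limits the keratins under about 1 CPM: KRT12 and KRT23 had at most 26 and 28 counts in a library, and a gene at 0 could have had up to 0.183 CPM.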
